A study of Mus musculus with 6 samples.

Results

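DNA methylation across the Prader-Willi and Angelman imprinted domain of mouse chromosome 7 was followed with the array probes that lie in it. Members were all probes other than controls that the mm9 build places in this domain, from the first at chr7:66482837 to the last at chr7:69610547, a rule that used no measured value. This gave 111 of the 174638 probes on the array. Probes with starts at most 500 bp apart were joined into runs of 3 or more, which gave 15 of the 22574 runs on the array and left 5 of the 111 probes outside runs. The inulin group was hypothalamus of 16 week old mice born to dams given inulin, a fermentable plant fibre (3 arrays). The obesity group was hypothalamus of the same age from mice born to obese dams, for which the labels also name a high fat diet (3 arrays). The labels do not give the diet of the inulin dams, nor strain, sex or litter, and there was no group from lean dams. In each sample, methylated DNA enriched with an antibody (MeDIP) was labelled with Cy5 and hybridised with the input DNA of that sample in Cy3. Values are log2 of MeDIP over input signal, with each array's median set to 0, and differences are inulin minus obesity.

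Imprinted genes are expressed mainly from the allele of a single parent. In this domain Snrpn (a splicing protein), Ndn (necdin), Magel2 (a partner of ubiquitin ligases), Mkrn3 (a ring finger protein) and Peg12 are expressed from the paternal allele. Ube3a, a ubiquitin ligase, is expressed mainly from the maternal allele in neurons, where a long transcript that starts near Snrpn and runs antisense to Ube3a silences the paternal copy. The Snrpn promoter lies in the imprinting centre, which carries methylation on the maternal allele. In humans, loss of the paternal products is found in Prader-Willi syndrome, with overeating and obesity, and loss of maternal UBE3A in Angelman syndrome. MeDIP on bulk tissue averages over the alleles and over all cells, so a change in cell makeup and a change of methylation within cells cannot be told apart.

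Such methylation sits mainly on the C of CG pairs, and promoters of the domain differ in how many they hold. Promoter sequences of 300 bases around the start were taken from RefSeq with the GRCm38.p6 build, which matched 6 of the 6 genes. They are given for Ube3a, for the first of 4 Snrpn starts, for the Snrpn start shared with Snurf, and for Ndn, with CG in capitals and each read 5′ to 3′ on the strand of its gene.
Ube3a, chr7:59228500-59228799, plus strand: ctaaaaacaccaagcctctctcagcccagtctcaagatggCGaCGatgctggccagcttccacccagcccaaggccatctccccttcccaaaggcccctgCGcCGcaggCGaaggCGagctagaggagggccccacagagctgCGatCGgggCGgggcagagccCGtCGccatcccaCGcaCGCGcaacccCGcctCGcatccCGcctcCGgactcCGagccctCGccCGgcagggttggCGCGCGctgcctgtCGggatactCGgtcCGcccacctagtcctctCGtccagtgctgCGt
Snrpn first start, chr7:60450128-60450427, minus strand: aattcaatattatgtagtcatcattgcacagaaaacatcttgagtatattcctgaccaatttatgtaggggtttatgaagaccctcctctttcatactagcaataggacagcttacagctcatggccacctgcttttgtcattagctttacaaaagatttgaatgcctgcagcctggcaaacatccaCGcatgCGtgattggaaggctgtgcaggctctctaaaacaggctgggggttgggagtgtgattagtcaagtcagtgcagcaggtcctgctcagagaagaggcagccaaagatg
Snrpn start shared with Snurf, chr7:60005150-60005449, minus strand: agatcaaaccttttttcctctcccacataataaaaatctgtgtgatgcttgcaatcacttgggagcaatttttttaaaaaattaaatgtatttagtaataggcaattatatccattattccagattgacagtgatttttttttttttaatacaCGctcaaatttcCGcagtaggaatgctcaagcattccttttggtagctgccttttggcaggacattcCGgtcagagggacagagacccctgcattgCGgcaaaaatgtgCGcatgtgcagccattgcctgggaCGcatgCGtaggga
Ndn, chr7:62348027-62348326, plus strand: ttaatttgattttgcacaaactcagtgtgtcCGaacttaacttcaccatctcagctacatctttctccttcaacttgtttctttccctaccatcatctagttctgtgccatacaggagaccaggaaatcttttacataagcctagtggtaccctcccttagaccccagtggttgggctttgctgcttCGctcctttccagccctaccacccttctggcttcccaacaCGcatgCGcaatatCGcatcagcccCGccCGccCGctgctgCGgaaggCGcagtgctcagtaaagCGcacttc
The Ube3a promoter held 29 CG, a number reached by 13.03% of 32544 promoters. The Ndn promoter held 11 CG (reached by 41.7%), the Snrpn start shared with Snurf 7 (52.4%) and the first Snrpn start 2 (86.0%). The other promoters held 10 CG for Magel2, 15 for Mkrn3 and 12 for Peg12. The letters CGCATGCG, which read the same on both strands and form the core of the motif of the factor NRF1, were found in 5 of the 9 starts of these genes, the 4 Snrpn starts and Ndn, against 1.87% of all promoters. This motif was chosen after reading the sequences, and the first 3 Snrpn starts share stretches of 49 to 62 bases, so they are near copies of each other. The matches are a description of the letters and show no binding.

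Positions in GRCm38.p6 were not converted to mm9 here, and no gene is named for a probe in the array files. Exons, introns and UTRs were therefore not assigned, and runs are tied to genes only by the approximate mm9 places in the choice rule. Runs 1 to 3 lay nearest to the place of Ube3a, and runs 4 to 8 nearest to that of Snrpn. Runs 12 to 15 lay in the stretch of Ndn, Magel2, Mkrn3 and Peg12, which in the RefSeq table are 4 neighbouring protein-coding genes in that order. Runs 9, 10 and 11 lay between Snrpn and this stretch. The RefSeq table lists 206 snoRNA genes between Ube3a and Snrpn and 13 microRNA genes between Snrpn and Ndn, all 13 of the Mir344 family.

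Of all probes, 94.4% to 96.4% per array gave an input signal well above background, and 77.3% to 85.7% gave such a MeDIP signal. The spread of the ratio was narrower in the inulin arrays (interquartile range 1.37, 1.39 and 1.38) than in the obesity arrays (1.62, 1.89 and 1.69). All 3 inulin arrays shared a scan, obesity arrays 1 and 3 shared another, and obesity array 2 had one of its own, so the slide, as read from the scan times, and the group cannot be told apart. Precision is limited by the number of arrays. Since the labels do not tell whether samples came from separate litters or animals, p-values cover no more than the spread among these 6 samples. The tissue label was not checked, because DNA on such an array carries no expression markers.

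Within the domain, 4 of 15 runs were higher in MeDIP ratio in the inulin group and 0 were lower by limma with Benjamini-Hochberg adjustment over all runs. Over the whole array 7.42% of runs passed this test, 5.61% higher and 1.81% lower. The 4 runs were run 3 near Ube3a, runs 5 and 7 near Snrpn, and run 10 between Snrpn and Ndn. At an unadjusted p under 0.05 there were 8 runs higher and 0 lower, where 28.6% of all runs passed. The groups did not overlap at 7 of the 15 runs, in each case with the inulin arrays above, which held for 20.8% of all runs (the inulin arrays lay below at 0 of the 15 and at 14.2% of all). The difference was positive at 13 of 15 runs, against 57.3% of all runs. Its median was 0.23 against 0.033 over all runs, and it ranged from -0.15 to 0.99. When limma took the slide as a random block (correlation 0.29), 0 of the 15 runs and 0% of all runs passed. There 7 were higher and 0 lower at an unadjusted p under 0.05, where 17.9% of all runs passed. Leaving out inulin array 1, 2 or 3 also left 0 of the 15 runs and 0% of all runs past the threshold by limma. In these fits 6 to 8 were higher and 0 lower at an unadjusted p under 0.05. Of all runs, 20.8%, 19.1% and 24.0% passed unadjusted without inulin array 1, 2 and 3. With the arrays set to an equal scale 3 runs were higher and 1 lower (run 4; 4.04% of all runs passed), and after quantile normalization 2 were higher and 0 lower (2.20% of all runs). In the authors' deposited table, whose scale and centring are unknown, 0 were higher and 1 lower (run 4; 2.51% of all runs).

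**Figure D1:**
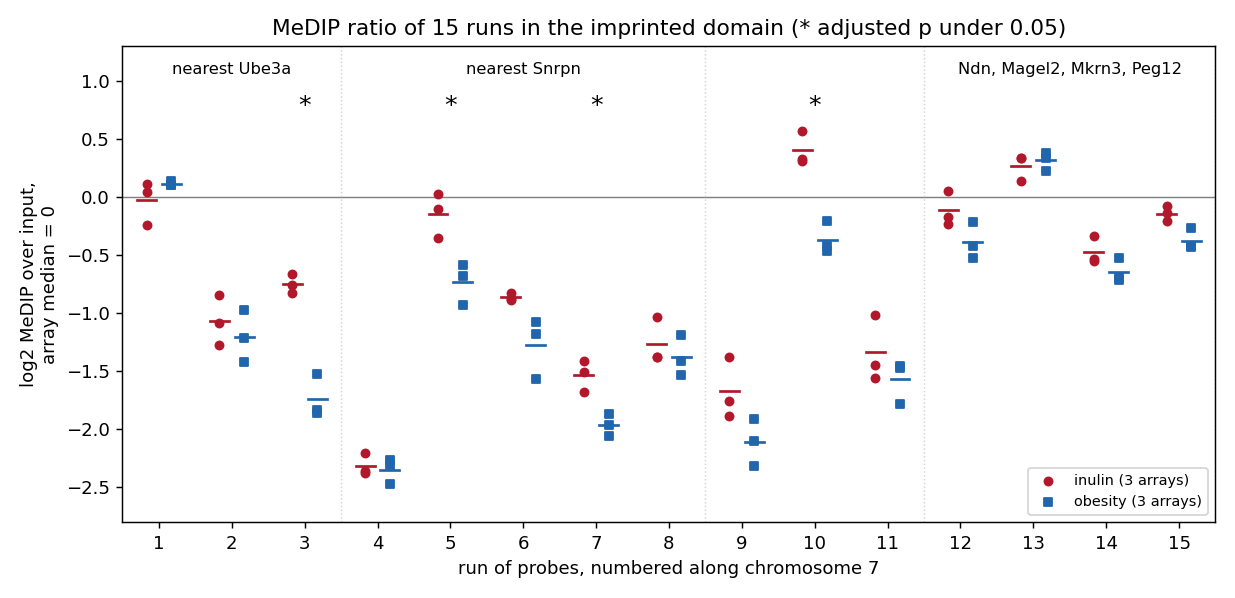
Log2 MeDIP over input (y axis, array median at 0) of the 15 runs in order along chromosome 7 (x axis), with 1 point per array and a bar at the mean of the 3 inulin and the 3 obesity arrays. The stars mark runs 3, 5, 7 and 10, whose adjusted p was under 0.05, and the inulin points lie above the obesity points at 7 of the 15 runs.

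Near Ube3a, run 3 showed the largest difference of the 15 runs. It spans chr7:66579020-66580730 (mm9, 8 probes) and had ratios of -0.83, -0.76 and -0.66 in the inulin arrays, against -1.53, -1.86 and -1.83 in the obesity arrays. Every inulin array lay above every obesity array. It averaged -0.75 ± 0.08 over the inulin arrays and -1.74 ± 0.18 over the obesity arrays (SD, n = 3 per group), a difference of 0.99 by limma (SE 0.10, adjusted p = 0.0137). In run 3 the MeDIP signal differed by 0.25 (adjusted p = 0.21 by limma) and the input signal by -0.72 (adjusted p = 0.0536 by limma). Of its 8 probes, 7 had a MeDIP signal above background on no array, and 1 was above background in both channels on all 6 arrays. That probe, at chr7:66580686-66580730, had ratios of -1.23, -1.20 and -1.21 in the inulin arrays, against -1.01, -1.28 and -0.83 in the obesity arrays, so the groups overlapped. In the authors' deposited table the difference of run 3 was 0.20 (adjusted p = 0.0758 by limma on that table).

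Run 1, nearest to the place of Ube3a, lay at chr7:66482837-66484547 (8 probes). Its ratios were -0.24, 0.05 and 0.11 in the inulin arrays, against 0.10, 0.11 and 0.14 in the obesity arrays (limma difference -0.15, SE 0.10, adjusted p = 0.353). Inulin array 1 was the lowest, and the groups overlapped. Within the 1711 bp of run 1 the ratio was higher at the last probes than at the first in all 6 arrays, though it did not rise at every step. Its 2 probes of 60 bp came first and its 4 of 45 bp last. The median ratio of domain probes was -1.61 at 60 bp and 0.56 at 45 bp. Whether the rise goes with probe length was not tested. The first 2 probes of run 1 lay between -3.85 and -0.99 and its last 2 between 1.57 and 2.12. Over its 3 probes above background in both channels on all 6 arrays, the ratio was 0.67, 0.65 and 0.72 in the inulin arrays, against 1.14, 0.97 and 1.12 in the obesity arrays. On those probes every inulin array lay below every obesity array, and run 1 had a lower ratio in the inulin group (limma difference -0.40, SE 0.07, adjusted p = 0.0155). Their MeDIP signal differed by -0.061 (adjusted p = 0.802) and their input signal by 0.35 (adjusted p = 0.0676), both by limma. This filter was chosen after the data were seen, and 13.7% of all runs passed the ratio test under it. The middle of the 3, at chr7:66483885-66483929, had 0.95, 0.999 and 0.98 in the inulin arrays, against 1.35, 1.45 and 1.24 in the obesity arrays, and alone did not pass (limma difference -0.37, SE 0.11, adjusted p = 0.078). A looser filter, both channels above background on at least 2 arrays of each group, left 4 probes of run 1. Run 1 was lower in the inulin group there too (limma difference -0.29, SE 0.07, adjusted p = 0.0421), where 6.50% of all runs passed.

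Run 2, at chr7:66544074-66545398 (6 probes), had ratios of -1.08, -1.27 and -0.84 in the inulin arrays, against -0.97, -1.42 and -1.22 in the obesity arrays. The groups overlapped, and the difference of 0.14 (SE 0.14) had an adjusted p of 0.535 by limma. Run 4, at chr7:66933838-66935376 (8 probes), stood at percentile 0.952 of all runs by ratio. It stood at percentile 99.98 by input signal and at percentile 99.68 by MeDIP signal, so both channels were bright. Its ratios were -2.21, -2.36 and -2.38 in the inulin arrays, against -2.27, -2.31 and -2.47 in the obesity arrays. The difference was 0.034 (SE 0.08, adjusted p = 0.824 by limma), with 8 spots of this run left out as outliers. With the arrays set to an equal scale it was -0.48 (adjusted p = 0.0337 by limma), and in the authors' deposited table it was -0.31 (adjusted p = 0.0281 by limma on that table).

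Near Snrpn, run 5 lay closest to the place given for the gene, at chr7:67118818-67120522 (7 probes). Its ratios were -0.11, -0.36 and 0.02 in the inulin arrays, against -0.68, -0.93 and -0.58 in the obesity arrays, with no overlap. It averaged -0.15 ± 0.19 over the inulin arrays and -0.73 ± 0.18 over the obesity arrays (SD, n = 3 per group), a difference of 0.58 by limma (SE 0.12, adjusted p = 0.0286). No probe of run 5 was above background in both channels on all 6 arrays, and its input signal stood at percentile 0.0664 of all runs. Its MeDIP signal differed by 0.22 (adjusted p = 0.302) and its input signal by -0.35 (adjusted p = 0.105), both by limma. Without obesity array 1 the adjusted p of the ratio was 0.0549 by limma, and in the authors' deposited table the difference of run 5 was 0.17 (adjusted p = 0.193 by limma on that table). The call of run 5 was also lost with loess (0.30, adjusted p = 0.0699), quantile normalization (0.47, adjusted p = 0.0532), input above background (0.41, adjusted p = 0.103) and the median of its probes (0.42, adjusted p = 0.127), all by limma.

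Run 7, at chr7:67241995-67242956 (5 probes), had ratios of -1.51, -1.68 and -1.41 in the inulin arrays, against -1.87, -2.06 and -1.96 in the obesity arrays. Every inulin array lay above every obesity array. It averaged -1.53 ± 0.14 over the inulin arrays and -1.96 ± 0.09 over the obesity arrays (SD, n = 3 per group), a difference of 0.43 by limma (SE 0.09, adjusted p = 0.030). On its 2 probes above background in both channels on all 6 arrays, run 7 had -1.41, -1.44 and -1.35 in the inulin arrays, against -1.53, -1.66 and -1.57 in the obesity arrays, again with no overlap. The difference there was 0.19 (SE 0.06, adjusted p = 0.0785 by limma). The MeDIP signal of these 2 probes was higher in the inulin group by 0.33 (SE 0.08, adjusted p = 0.0429 by limma). Their input signal differed by 0.16 (adjusted p = 0.232 by limma). This filter was chosen after the data were seen, and 6.93% of all runs passed its MeDIP test. Over all 5 probes of run 7 the MeDIP signal differed by 0.14 (adjusted p = 0.332) and the input signal by -0.28 (adjusted p = 0.129), both by limma. With the arrays set to an equal scale the difference of run 7 over all its probes was 0.049 (adjusted p = 0.768 by limma). It was 0.062 after quantile normalization (adjusted p = 0.680) and 0.13 by the median of its probes (adjusted p = 0.609), both by limma, and in the authors' deposited table it was -0.022 (adjusted p = 0.862 by limma on that table). Without obesity array 3 the adjusted p was 0.0592 by limma.

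Run 6, at chr7:67149548-67151222 (8 probes), had ratios of -0.88, -0.89 and -0.83 in the inulin arrays, against -1.08, -1.56 and -1.18 in the obesity arrays. The groups did not overlap, and the difference of 0.41 (SE 0.12) had an adjusted p of 0.0644 by limma. In all 6 arrays the ratio of run 6 was lower at its last probe than at its first. Its first probe lay between 0.48 and 0.73 and its last between -3.38 and -2.65. Run 8, at chr7:67284611-67285499 (5 probes), had ratios of -1.37, -1.38 and -1.03 in the inulin arrays, against -1.41, -1.53 and -1.19 in the obesity arrays (limma difference 0.11, SE 0.12, adjusted p = 0.565). The groups overlapped, and within run 8 single probes differed in direction. The probe at chr7:67285227-67285280 had -1.47, -0.86 and -0.72 in the inulin arrays, against -0.55, -0.23 and -0.34 in the obesity arrays (limma difference -0.64, SE 0.21, adjusted p = 0.0944).

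Between Snrpn and Ndn, run 10 passed the test and was the only run of the domain whose input difference also passed. It spans chr7:69071966-69072827 (5 probes) and had ratios of 0.33, 0.31 and 0.57 in the inulin arrays, against -0.21, -0.47 and -0.42 in the obesity arrays, with no overlap. It averaged 0.40 ± 0.14 over the inulin arrays and -0.37 ± 0.14 over the obesity arrays (SD, n = 3 per group), a difference of 0.77 by limma (SE 0.10, adjusted p = 0.0146). The input signal of run 10 was lower in the inulin group (difference -0.71, SE 0.12, adjusted p = 0.043 by limma), while its MeDIP signal differed by 0.044 (SE 0.09, adjusted p = 0.793 by limma). This input call was lost in each of the 6 fits that left out 1 array. On its 3 probes above background in both channels on all 6 arrays, the ratio was 0.21, 0.30 and 0.37 in the inulin arrays, against 0.45, 0.54 and 0.10 in the obesity arrays. There the groups overlapped (limma difference -0.067, SE 0.11, adjusted p = 0.699). After normexp background correction the difference of run 10 was 0.070 (adjusted p = 0.381 by limma), and in the authors' deposited table it was 0.029 (adjusted p = 0.817 by limma on that table).

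**Figure D2:**
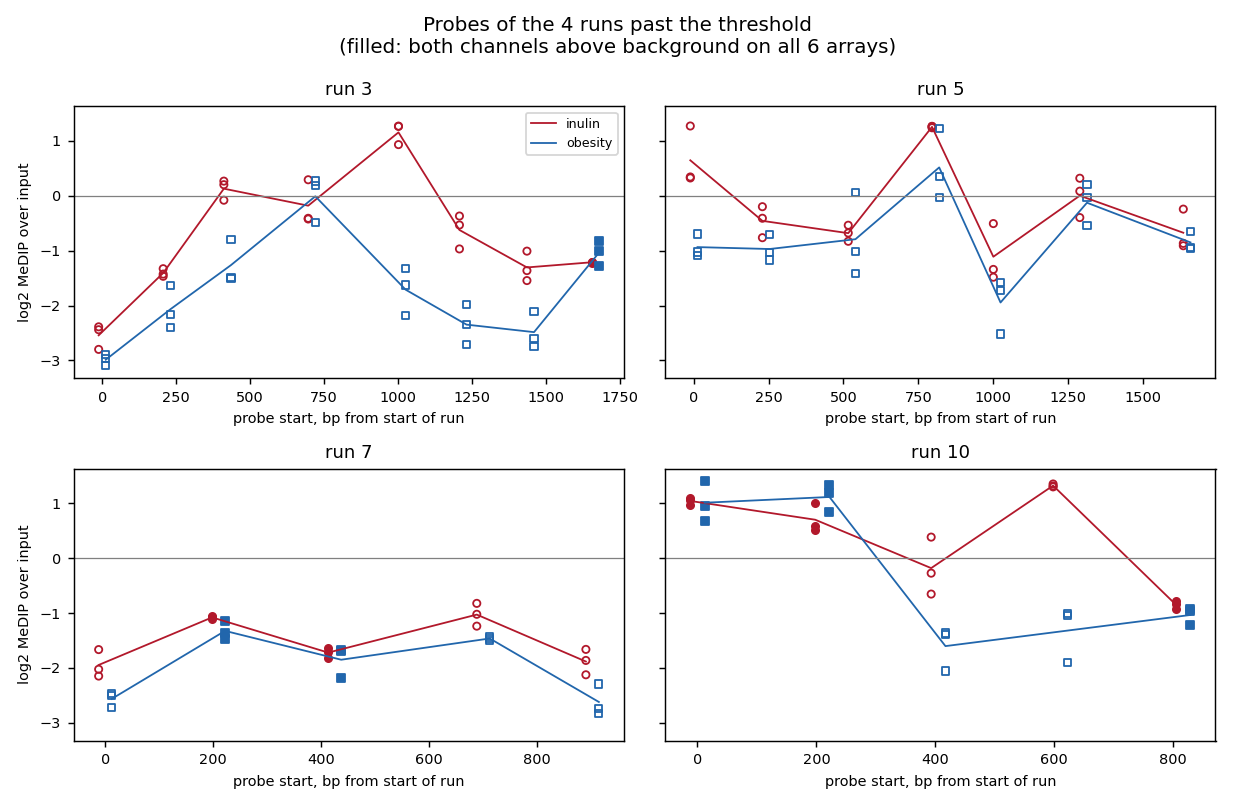
Log2 MeDIP over input (y axis) of each probe of runs 3, 5, 7 and 10 by distance from the start of the run in bp (x axis), with 1 point per array and lines through the means of the 3 inulin and the 3 obesity arrays. Filled points are probes above background in both channels on all 6 arrays (1, 0, 2 and 3 probes), and the widest gaps between the lines in runs 3 and 10 are at open points.

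Run 9, at chr7:68759724-68761348 (8 probes), had ratios of -1.89, -1.75 and -1.38 in the inulin arrays, against -1.91, -2.32 and -2.10 in the obesity arrays. The groups did not overlap, and the difference of 0.44 (SE 0.14) had an adjusted p of 0.0883 by limma. It was 0.014 with the arrays set to an equal scale (adjusted p = 0.960) and 0.072 after quantile normalization (adjusted p = 0.762), both by limma. In the authors' deposited table it was 0.064 (adjusted p = 0.617 by limma on that table). On its 7 probes complete on all arrays, a filter added after the data were seen, it was 0.53 (adjusted p = 0.0455 by limma, where 10.3% of all runs passed). In run 9 the MeDIP signal of 7 probes was above background on no array. Run 11, at chr7:69126754-69128240 (7 probes), had ratios of -1.56, -1.44 and -1.02 in the inulin arrays, against -1.78, -1.45 and -1.48 in the obesity arrays (limma difference 0.23, SE 0.14, adjusted p = 0.321). Its first probe, at chr7:69126754-69126806, had 0.37, 0.53 and 0.31 in the inulin arrays, against 0.00 and -0.27 in the 2 obesity arrays where it was not an outlier (limma difference 0.53, SE 0.15, adjusted p = 0.0774).

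Ndn, Magel2, Mkrn3 and Peg12 encode 2 MAGE family proteins, a makorin and a FRAT protein in that order. In their stretch 0 of 4 runs passed the test by limma, where 7.42% of all runs did. At an unadjusted p under 0.05 there were 2 of the 4, where 28.6% of all runs passed. Run 12, at chr7:69491863-69493596 (8 probes), had ratios of -0.23, -0.17 and 0.05 in the inulin arrays, against -0.22, -0.42 and -0.52 in the obesity arrays (limma difference 0.27, SE 0.11, adjusted p = 0.131). The groups overlapped. Run 13, at chr7:69520569-69522343 (8 probes), had 0.33, 0.14 and 0.34 in the inulin arrays, against 0.38, 0.34 and 0.23 in the obesity arrays (limma difference -0.046, SE 0.08, adjusted p = 0.758). The groups overlapped. In all 6 arrays the ratio was lower at the first probe of run 13 than at its last 3. These last 3 lay between 1.35 and 2.54.

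Run 14, at chr7:69564570-69566174, had 7 of 7 probes above background in both channels on all 6 arrays, as had run 4 with 8 of 8. Its ratios were -0.53, -0.33 and -0.55 in the inulin arrays, against -0.72, -0.52 and -0.69 in the obesity arrays. The groups overlapped (limma difference 0.17, SE 0.09, adjusted p = 0.234). Run 15, at chr7:69608941-69610547 (8 probes), had -0.14, -0.21 and -0.08 in the inulin arrays, against -0.27, -0.42 and -0.43 in the obesity arrays. These groups did not overlap, and the difference of 0.23 (SE 0.08) had an adjusted p of 0.0918 by limma. On its 4 probes with complete values above background, the difference of run 15 was -0.16 (SE 0.07, adjusted p = 0.126 by limma). The channel differences of run 15 over all its probes were 1.004 for MeDIP and 0.79 for input (limma adjusted p = 0.146 and 0.135), with its probe at chr7:69609174-69609218 left out as an outlier on obesity arrays 2 and 3. Over its probes with a value on all 6 arrays they were 0.21 for MeDIP and 0.016 for input (limma adjusted p = 0.0859 and 0.90).

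Among single probes above background in both channels on all 6 arrays, 2 of 52 passed the test (6.14% of all such probes did), both in this stretch and both higher in the inulin group. The probe at chr7:69520773-69520828, in run 13, had -0.84, -0.92 and -0.82 in the inulin arrays, against -1.37, -1.49 and -1.32 in the obesity arrays (limma difference 0.53, SE 0.11, adjusted p = 0.0352). Its MeDIP signal differed by 0.57 and its input signal by 0.052. The probe at chr7:69566115-69566174, in run 14, had -1.60 and -1.79 in inulin arrays 1 and 3 and was an outlier on inulin array 2, against -2.71, -2.69 and -2.30 in the obesity arrays (limma difference 0.87, SE 0.17, adjusted p = 0.0386). For this probe the difference was 0.058 in MeDIP signal and -0.79 in input signal. The lowest p in the other direction was at chr7:69608941-69608985, the first probe of run 15. It had 1.05, 0.82 and 1.12 in the inulin arrays, against 1.53, 2.22 and 1.55 in the obesity arrays, with no overlap but an adjusted p of 0.0604 by limma (difference -0.77, SE 0.21).

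**Figure D3:**
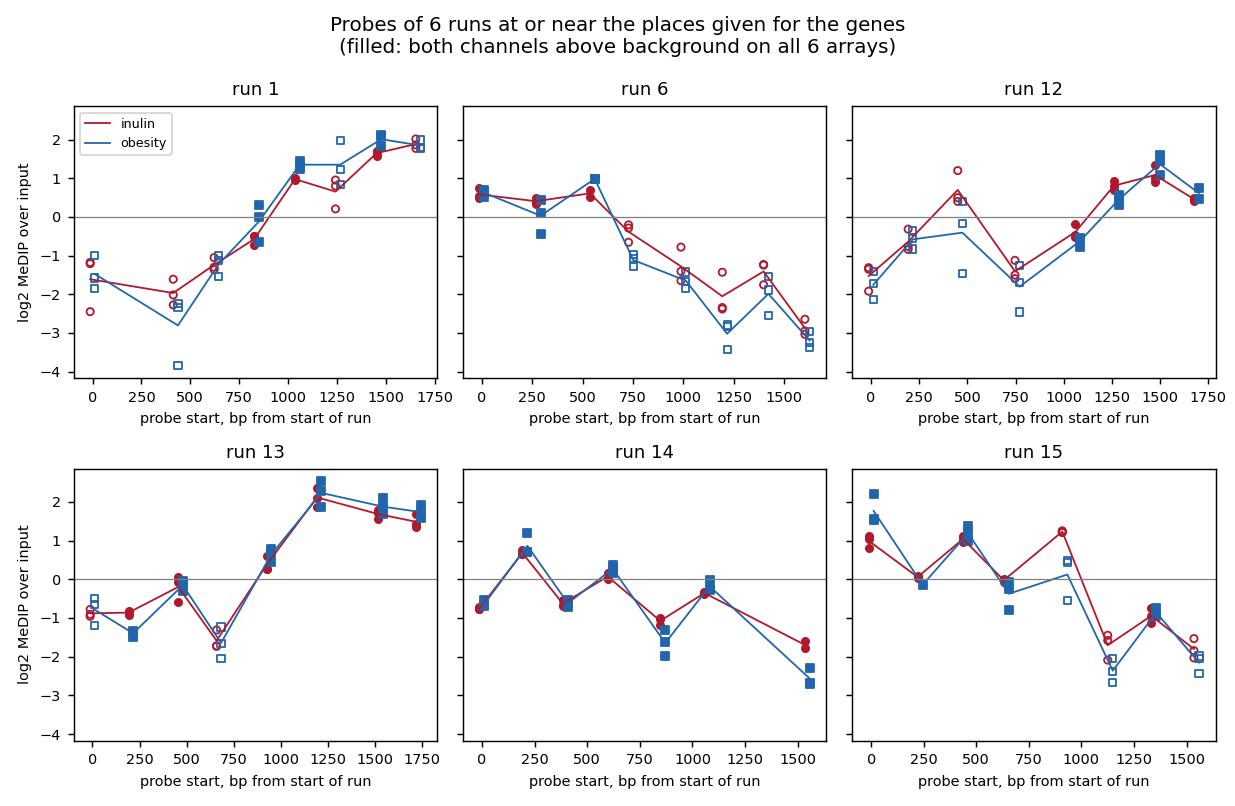
Log2 MeDIP over input (y axis) of each probe of runs 1, 6, 12, 13, 14 and 15 by distance from the start of the run in bp (x axis), with 1 point per array and lines through the means of the 3 inulin and the 3 obesity arrays. Filled points are above background in both channels on all 6 arrays, and in runs 1 and 13 the ratio is -0.49 or lower at the first probe and 1.35 or higher at the last in all 6 arrays.

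Over all 111 probes of the domain, 106 could be tested, of which 14 were higher and 0 lower in ratio in the inulin group by limma, where 8.21% of all probes passed (5.12% higher and 3.08% lower). The 14 lay in runs 3, 5, 6, 9, 10, 11, 13, 14 and 15, with 4 of them in run 3. Leaving out inulin array 1, 2 or 3 left 3 passing probes each (0.553%, 0.421% and 1.33% of all probes), leaving out obesity array 1 or 3 left 8 each (3.05% and 3.5%), and a random block for the slide left 2 (0.159%). Of the 14, 11 had a MeDIP signal above background on no array. At such probes the ratio rests on a dim MeDIP signal and on the input. It can be a bound only where the input was above background. At 9 of these 11 the input difference exceeded the MeDIP difference in size, with a median input difference of -1.18 and a median MeDIP difference of 0.49, and at only 2 of them was the input above background on all 6 arrays.

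Probes with dim MeDIP were common in the domain. The MeDIP signal was above background on no array at 39 of 111 probes (35.1%, against 12.5% of all probes), and 28.9% of the 38 tested passed, against 14.4% of all such probes. In the domain 11 of them passed as higher and 0 as lower in the inulin group, with a median difference of 0.64. Such probes leaned the same way over the whole array, with 2849 higher, 287 lower and a median difference of 0.33. Both channels were above background on all 6 arrays at 56 of 111 probes (50.5%, against 73.0% of all probes). Of these, 52 were tested and 2 passed (3.85%, against 6.14% of all such probes). Their median difference was -0.064, with 23 positive and 29 negative. All such probes of the array leaned the same way, with a median of -0.042, 54525 positive and 68348 negative. The dim probes were mostly the longest ones. Probes of 60 bp made up 42.3% of the domain, against 13.2% of the array, and 8.51% of those in the domain had MeDIP above background on all 6 arrays, against 96.4% of its 45 bp probes. The 60 bp probes held 12 of the 14 passing probes (85.7%), against 29.5% of the passing probes of the whole array. Their median difference was 0.60 in the domain, against 0.41 for all 60 bp probes of the array.

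When each run was averaged over its probes that were above background in both channels and an outlier on none of the 6 arrays, 13 runs had a value. No such probe was left in runs 5 and 9, and 3 of 8 were left in run 4 and 6 of 7 in run 14. The difference was then positive at 3 and negative at 10 of the 13 runs, with a median of -0.062 against -0.030 over all runs. By limma 1 of the 13 passed, run 1, lower in the inulin group, where 13.7% of 22396 runs passed. The differences of runs 3 and 10 were -0.17 and -0.067 on those probes. The filter was chosen after the data were seen.

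**Figure D4:**
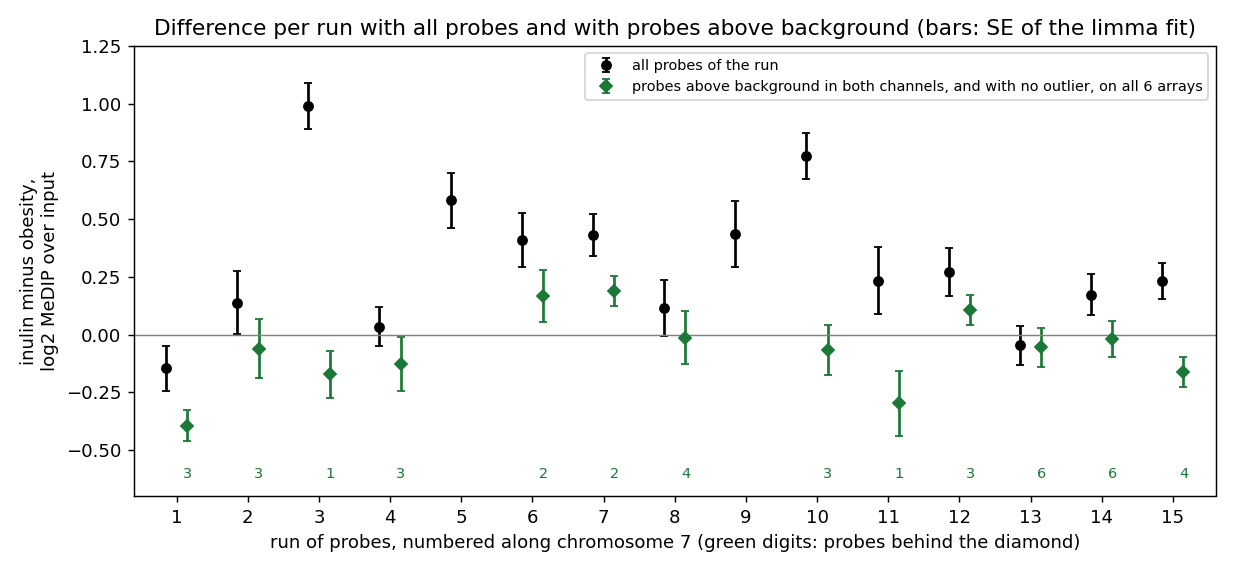
Difference of the log2 MeDIP over input ratio, inulin minus obesity (y axis), for each run in order along chromosome 7 (x axis). Black points use all probes of a run and green diamonds only probes above background in both channels, and with no outlier, on all 6 arrays, with their number below and bars for the SE of the limma fit; 13 of 15 black points and 3 of 13 diamonds lie above 0.

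By single channel, 0 of 15 runs differed in the MeDIP signal by limma (2 higher and 0 lower at an unadjusted p under 0.05), where 0.253% of all runs passed (21% unadjusted). In the input signal 1 run, run 10, was lower in the inulin group, where 2.14% of all runs passed. At an unadjusted p under 0.05 the input signal was lower at 6 runs and higher at 2, where 24.4% of all runs passed. The median input difference over the 15 runs was -0.15, against 0.043 over all runs, and the median MeDIP difference was 0.14, against 0.066 over all runs. Among the 106 single probes tested, 7 were higher and 2 lower in the MeDIP signal by limma, and 4 were higher and 18 lower in the input signal. The median probe difference was 0.12 in MeDIP (0.036 over all probes) and -0.13 in input (0.039 over all probes). The share of all probes that passed in each channel was not counted. Input DNA was not enriched for methylation.

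The domain as a whole had low ratios. Its median run ratio over the 6 arrays was -1.07, against -0.055 over all runs and -0.16 over the 2087 runs of chromosome 7. The 12 runs of the flank before it had a median of -0.17 and the 20 runs of the flank after it a median of 0.031, over stretches as long as the domain. By array the domain median was -0.83, -0.76 and -0.66 in the inulin arrays, against -0.97, -1.42 and -1.18 in the obesity arrays, with no overlap. The groups were in the same order over all runs (-0.032, -0.043 and -0.045 in the inulin arrays, against -0.056, -0.092 and -0.068 in the obesity arrays) and over chromosome 7 (-0.13, -0.14 and -0.15 in the inulin arrays, against -0.19, -0.23 and -0.19 in the obesity arrays). A ratio also varies with the CG content and length of a probe, so these levels give no order of methylation. By limma 9.25% of the runs of chromosome 7 passed the test.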

How the data were processed

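The files hold intensity values of 6 two-colour Agilent arrays. Per the file headers, the authors extracted them with Feature Extraction 11.0.1.1 under the protocol ChIP_1100_Jul11 with mm9 positions, the processed intensities were background-subtracted and dye-normalized, and a log10 ratio of red over green was formed from them. The authors' deposited table of the series holds a score per probe, which per array had a correlation of 0.866 to 0.910 with log2 of red over green; its scale and centring are unknown, and its medians were 0.061, 0.057 and 0.043 in the inulin arrays and 0.056, 0.054 and 0.054 in the obesity arrays.

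Log2 of Cy5 (MeDIP) over Cy3 (input) was centred on each array's median, and spots marked as outliers were left out (1901 to 4863 per array). No loess or quantile step was used, since most probes carry signal. Runs were averaged, and values were needed on 2 arrays of each group. The comparison used limma 3.58.1 (R 4.3.3) over all runs or probes, with two-sided p-values adjusted by Benjamini-Hochberg and called under 0.05. The test was run on simulated runs with independent normal values, the same spread in both groups and no slide effect. There it recovered 28 of 50 shifts of 0.5 and 45 of 50 shifts of 1. In the real data slide goes with group and the spread differs, so the simulation cannot show how the test behaves there. Slides were read from shared scan times. Every run of the domain is named, and per direction the 3 probes of lowest p among those above background in both channels on all 6 arrays. Members, lists and rules were chosen with earlier results of these data known. Alternatives were normexp (offset 50), loess, equal scale, quantile, the deposited table, filters on dim or incomplete probes, blocks for replicate number and slide, gaps of 300 and 1000 bp, the median of probes, a threshold of 0.1 and leaving out each array. Figures were drawn with matplotlib 3.10.9.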

Additional observations from a re-analysis of the deposited data

How the results depend on the processing

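The count of 4 passing runs of 15 (limma, 4 higher) stayed within 1.5 times of 4 under several alternatives, but which runs passed and their direction could change. Runs passing the ratio test were higher in the inulin group unless marked lower. Percentages beside the counts are the share of all runs that passed under that alternative. It was 3 with normexp (8.51%), 4 with loess (12.4%) and 4 with equal scale (4.04%). With equal scale 3 were higher and 1 lower, as run 7 no longer passed and run 4 passed as lower. It was 5 of 18 with a gap of 300 bp (6.51%), 4 with a gap of 1000 bp (7.85%) and 6 with probes complete on all arrays (10.3%). The count was 2 with quantile normalization (2.20%) and 1 in the table the authors deposited (run 4, lower, 2.51%). With input above background it was 2 (5.66%). With both channels above background on at least 2 arrays of each group it was 1 of 11 (run 1, lower, 6.50%). It was 0 with slide as a random block (0%), 2 by the median of the probes (3.25%) and 7 at a threshold of 0.1 (17.7%). With probes above background on all arrays it was 1 of 13 (run 1, lower, 13.7%). It ranged from 0 to 4 when each array was left out. The count was 0 without inulin array 1, 2 or 3 (0% each), 3 without obesity array 1 or 3 (4.22% and 2.80%) and 4 without obesity array 2 (9.62%). The count of 14 passing probes was 28 with normexp (22 higher and 6 lower), 7 with equal scale (6 higher and 1 lower) and 6 after quantile normalization (6 higher). It was 2 in the deposited table (1 higher and 1 lower), 5 with both channels above background (4 higher and 1 lower) and 2 with the slide block (2 higher). At a threshold of 0.1 it was 31 (27 higher and 4 lower), and over the arrays left out it ranged from 3 to 13. The MeDIP count of 0 was 1 with complete probes (lower, where 7.62% of all runs passed). With probes above background on all arrays it was 1 (higher, 6.93%). It was 0 in every fit that left out an array (0% to 0.461%). The input count of 1 was 0 with input above background (1.19% of all runs passed), 0 with the replicate block (0%) and 0 with the slide block (0.602%). It was 6 with complete probes (5 lower and 1 higher, 17.9%). With probes above background on all arrays it was 4 (3 higher and 1 lower, 11.7%). Over the arrays left out it was 0 to 1 (0.0266% to 0.833%), where the 1 without obesity array 1 was higher. The median difference of 0.23 was 0.072 with normexp, 0.049 with equal scale, 0.062 after quantile normalization, -0.022 in the deposited table, 0.034 with both channels above background, 0.15 with input above background, 0.38 by the median of the probes, -0.062 with probes above background on all arrays and 0.20 to 0.33 over the arrays left out.

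Of 264 run differences under an alternative, 38 changed sign. With normexp, run 4 was -0.088 and run 8 -0.037. With loess, run 13 was 0.011. With equal scale, run 2 was -0.12, run 4 -0.48, run 8 -0.18, run 11 -0.079 and run 13 0.018. After quantile normalization, run 2 was -0.054, run 4 -0.36, run 8 -0.12 and run 11 -0.015. In the deposited table, run 2 was -0.0083, run 4 -0.31, run 7 -0.022, run 8 -0.22, run 11 -0.085, run 12 -0.075 and run 14 -0.046. With input above background, run 10 was -0.067. With both channels above background, run 8 was -0.014, run 10 -0.067 and run 15 -0.16. By the median of the probes, run 8 was -0.21 and run 14 -0.019. With complete probes, run 4 was -0.13 and run 14 -0.020. With probes above background on all arrays, run 2 was -0.062, run 3 -0.17, run 4 -0.13, run 8 -0.014, run 10 -0.067, run 11 -0.30, run 14 -0.020 and run 15 -0.16. Over the arrays left out, run 4 ranged from -0.027 to 0.075 and run 13 from -0.091 to 0.020. In the MeDIP channel, run 10 was -0.20 under either filter on background, and run 1 was -0.061 with probes above background on all arrays and ranged from -0.033 to 0.19 over the arrays left out. In the input channel, run 3 was 0.37, run 6 0.10 and run 7 0.16 with probes above background on all arrays, and run 6 ranged from -0.11 to 0.059 over the arrays left out. The cause of these changes was not tested. The filters on complete probes and on probes above background on all arrays were added after the data were seen, and the second also needed a value on all 6 arrays.

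The labels number the arrays of each group 1 to 3 without saying that a number marks a shared litter or day. Same-numbered arrays deviated from their group means with correlations of -0.14, 0.28 and 0.33 over 22572 runs. For differently numbered arrays the correlations lay between -0.38 and 0.22. Deviations from a group mean cancel within each group, which ties these correlations to each other. They therefore cannot tell whether a number marks a pair. With the replicate number as a block, 5 of 15 runs (11.96% of all runs), 18 of 106 probes (8.67% of all probes) and 0 input runs (0% of all runs) passed by limma. At probes with MeDIP above background on no array, the signal sets a limit on what a ratio can show.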
